A study of Mus musculus with 30 samples.

Results

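Breast tumour cells recovered from the lungs of NSG mice 7 days after injection were compared with cells of the same line recovered from NSG mammary tumours at day 10. The comparison used 10 of the 30 libraries of the study, chosen by their labels alone: 5 from lung, which carry the stage name DTC (not expanded in the labels), and 5 from mammary tumour. All cells were 4T1-tdTomato, a carcinoma line that arose in the mammary gland of a BALB/c mouse and here makes a red fluorescent protein, and all mice were female. Tumours were seeded with 200000 cells in the mammary fat pad, and lungs with 500000 cells through the tail vein, so that organ, route, cell number and day differed together and cannot be told apart. NSG mice lack T, B and natural killer cells, which held for both groups. Tissue was digested with collagenase IV and DNase in the presence of the inhibitor Y-27632, red cells were lysed, and single live cells (DAPI-) with red fluorescence (tdTomato+) and without CD45, the common protein of white blood cells, were sorted. The labels do not say whether each library came from its own mouse, and the numbers in the titles of the 2 groups do not overlap. The p-values therefore measure the spread between libraries of a group, which may be technical. That spread was estimated from all 30 libraries, so groups not compared here enter it too. The line comes as 1 labelled population, so the results describe 4T1 and no other carcinoma. The 5 DTC libraries (day 7) and 5 tumour libraries (days 21 and 22) from BALB/c mice served to ask whether a change differed between the hosts. Beyond that they entered only the shared fit. BALB/c mice have an intact immune system and received the same cell numbers by the same routes.

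A tumour cell that lodges in a lung capillary has to survive, leave the vessel and divide in a tissue that is thin-walled and rich in oxygen, whereas cells of a growing mammary tumour are packed densely and share a limited blood supply. Genes of DNA replication and mitosis are switched on in waves as a cell passes through its cycle and are silenced in resting cells. Low oxygen stabilises hypoxia-inducible factor, which binds the core sequence ACGTG near genes of glycolysis and collagen maturation. Type I interferon acts through the interferon-stimulated response element, and the same cells raise MHC class I molecules under interferon gamma.

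Sequencing was deep in all 10 libraries, with total counts of 34632933 to 57813345 in the DTC and 29832098 to 65430982 in the tumours. Pearson correlations of log2 CPM (counts scaled to library size, with TMM) between libraries of a group were 0.977 to 0.987 in the DTC and 0.952 to 0.984 in the tumours. The 11 markers of carcinoma and epithelial identity (Epcam, Cdh1, Krt8 and others) summed to 5952 to 9022 CPM in the DTC and 9605 to 10125 CPM in the tumours, so both groups carried the labelled identity. The DTC libraries were richer in RNA of low GC content and long exons. Across genes, the rank correlation between a library's departure from the mean and GC content was -0.594 to -0.311 in the DTC and -0.201 to 0.0346 in the tumours. For exonic length it was 0.0833 to 0.253 in the DTC and -0.072 to 0.067 in the tumours. DTC replicate 3 had the lowest correlation with GC content and stands apart in several genes below.

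Of 17774 genes tested with edgeR's quasi-likelihood test, 4538 (25.5%) passed an adjusted p of 0.05, with 2840 (16.0%) higher and 1698 (9.55%) lower in the DTC. With offsets for GC content and length fitted to each library, 1354 (7.62%) were higher and 3029 (17.0%) lower, and on log2(TPM + 1), where TPM is the deposited length-scaled level, 4680 of 13339 (35.1%) were higher and 787 (5.90%) lower. Without tumour replicates 2 and 3, which carried more muscle RNA, 1746 of 18902 (9.24%) were higher and 1303 (6.89%) lower. The median log2 fold change of all genes was 0.06, against -0.11 with the offsets and 0.24 on the TPM scale, and changes within that range take their direction from the scale. The calls shared by the plain and the offset fit were 1273 higher and 1489 lower. With genes split by GC content into 5 groups of like size, 35.8% of the group with the lowest GC content were higher and 2.26% lower, and 3.89% of the group with the highest were higher and 18.7% lower. Split by exonic length, 35.9% of the longest group were higher, against 4.40% of the shortest. The plot of calls by GC content and length shows both trends and the offset fit, in which the share called higher ran from 5.19% to 12.1% over the GC groups. The part of this trend in the results was not tested, and values with the offsets are given beside most of the groups below. In 4517 genes (25.4%) the 5 libraries of one group lay wholly above those of the other.

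**Figure D1:**
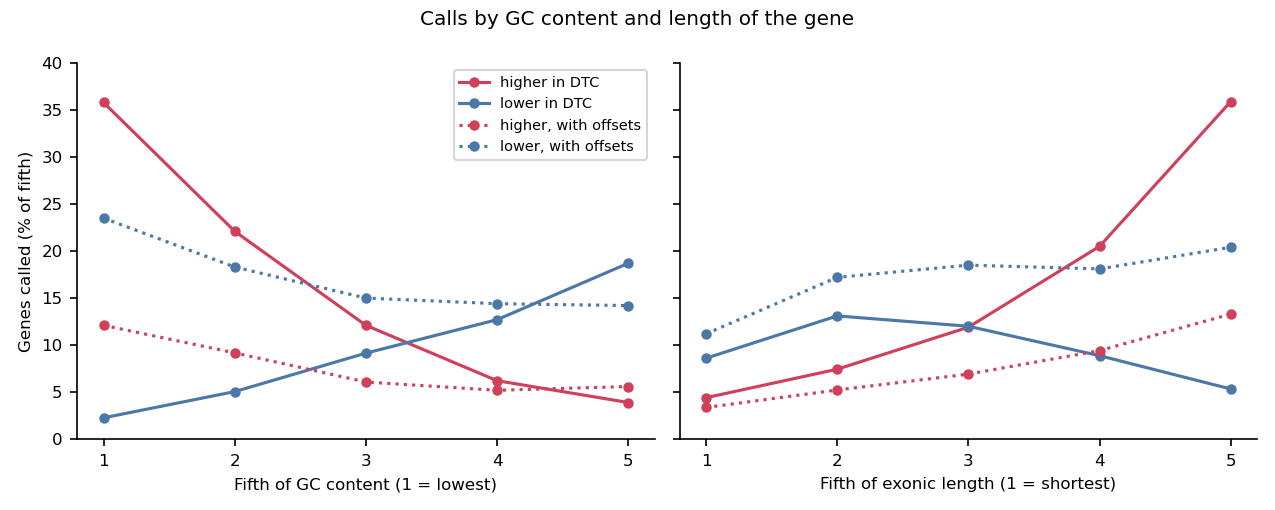
Percentage of genes called higher (red) or lower (blue) in NSG DTC than in NSG tumours, in 5 groups of like size by GC content (left) and by exonic length (right). Solid lines are the plain fit, where the share called higher falls from 35.8% to 3.89% over the GC groups, and dotted lines the fit with offsets.

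Genes that carry out chromosome segregation were higher in the DTC. Of 31 genes of mitosis and the spindle checkpoint, 15 rose and none fell (median log2 fold change 0.42). Among 12 mitotic kinesins, motors that build and slide the spindle, 8 rose and none fell (median 1.37), and of 32 kinetochore and centromere genes 23 rose and 1 fell (median 0.61). With the offsets the mitosis list had 10 genes higher (median 0.32), the kinesins 8 (median 1.00) and the kinetochore list 8 higher and 2 lower (median 0.25). Log2 fold changes are given as value ± standard error with the adjusted p of edgeR's test.

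Mki67 encodes the protein that coats mitotic chromosomes and is the usual stain for dividing cells. It stood at 19.2, 16.2, 15.5, 14.8 and 15.1 CPM in the tumours and 199, 262, 275, 245 and 253 CPM in the DTC. Every DTC library lay far above every tumour (3.94 ± 0.43, adjusted p = 4.13e-07, offset 3.48). Cenpf, a kinetochore protein of the outer plate, stood at 9.31, 9.24, 6.94, 7.31 and 9.24 CPM in the tumours and 100.1, 116, 127, 113 and 119 CPM in the DTC, again without overlap (3.78 ± 0.34, adjusted p = 2.86e-08). The kinetochore motor gene Cenpe rose as well (3.66 ± 0.46), as did Knl1, the platform of the spindle checkpoint (3.54 ± 0.49). The topoisomerase gene Top2a, needed to untangle sister chromatids, stood at 141, 141, 93.9, 141 and 139.8 CPM in the tumours and 447, 458, 566, 497 and 542 CPM in the DTC. Its groups did not overlap either (1.94 ± 0.35, adjusted p = 0.000173), and with the offsets it was still called (1.24).

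Kinesins differed among themselves. Kif20b, a motor of cytokinesis, stood at 3.80, 2.19, 3.34, 2.46 and 2.87 CPM in the tumours and 41.3, 41.4, 52.5, 43.0 and 46.0 CPM in the DTC (3.93 ± 0.56, adjusted p = 1.31e-05). Kif11, the motor that pushes the spindle poles apart, stood at 27.1, 24.7, 18.4, 26.1 and 25.6 CPM in the tumours and 102, 117, 149.8, 124 and 123 CPM in the DTC (2.34 ± 0.42, adjusted p = 0.000177). Kif15 (2.48 ± 0.41) and Kif18a (3.01 ± 0.44), a motor that limits chromosome swinging, rose as well. By contrast Kif20a, which acts in the same final step of division as Kif20b, stood at 91.5, 103, 83.7, 97.6 and 104 CPM in the tumours and 97.5, 97.5, 110.0, 106 and 118 CPM in the DTC, with overlapping groups and no call (0.14 ± 0.16, adjusted p = 0.585). The gene for the centromeric histone Cenpa was not called either (0.20 ± 0.14, adjusted p = 0.304), and Zwint, a kinetochore linker, was the member that fell (-0.35 ± 0.07, adjusted p = 0.000665). GC content of the gene was 39.4% in Kif20b, 38.2% in Kif18a and 42.9% in Cenpe, against 48.4% in Kif20a and 48.7% in Cenpa, but 42.6% in Zwint. Its part in the result was not tested, and Kif20b, Kif18a and Cenpe kept calls of 3.05, 1.98 and 2.95 with the offsets.

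Promoters of many of these genes, but not all, hold the cell cycle genes homology region TTTGAA, bound by the complex that represses mitotic genes in resting cells. RefSeq promoters of GRCm38.p6, 300 bases each from 250 before to 50 after the start, were matched for 9516 tested genes with 1 listed start. TTTGAA on either strand was found in 12.3% of them, in 10 of 11 kinesin promoters, 14 of 22 mitosis promoters and 12 of 26 kinetochore promoters. Outside cell division, the list of BCL2 family genes had it in 5 of 10. These counts take in list members whether called or not, and a link between the element and a rise was not tested. The stretches just before the start are shown for 4 members that rose, with the element in capitals (TTCAAA is the element on the other strand). They are chr7:135716380-135716509 on the minus strand, chr11:99024190-99024289 on the minus strand, chr19:37376282-37376381 on the plus strand and chr9:122950981-122951080 on the plus strand, written 5′ to 3′ on the gene's strand and ending at the base before the start.
Mki67: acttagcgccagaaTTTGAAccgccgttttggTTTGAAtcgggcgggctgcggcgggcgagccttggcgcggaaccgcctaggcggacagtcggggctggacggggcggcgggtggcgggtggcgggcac
Top2a: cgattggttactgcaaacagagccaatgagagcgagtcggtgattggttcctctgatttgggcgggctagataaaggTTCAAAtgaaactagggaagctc
Kif11: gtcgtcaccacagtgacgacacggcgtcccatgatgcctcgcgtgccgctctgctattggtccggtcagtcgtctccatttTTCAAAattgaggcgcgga
Kif15: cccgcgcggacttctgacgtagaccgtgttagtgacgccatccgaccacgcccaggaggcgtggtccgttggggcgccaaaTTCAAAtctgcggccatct
In Mki67 the element occurs at 2 places, and in Top2a, Kif11 and Kif15 at 1 place within 30 bases of the start. A match describes these letters only, and none of the motifs searched here contains another.

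Genes that fold, hold together and organise chromosomes were higher as well. Of 19 cohesin and condensin genes 17 rose and none fell (median 1.82), and 15 rose with the offsets (median 1.03). Smc4, the core ATPase of condensin, stood at 32.0, 21.9, 14.4, 17.1 and 19.8 CPM in the tumours and 191, 174, 222, 196 and 209 CPM in the DTC. All 5 DTC libraries lay several-fold above the highest tumour (3.24 ± 0.46, adjusted p = 1.34e-05). Nipbl, which loads cohesin onto DNA, stood at 18.6, 18.8, 22.4, 13.0 and 11.7 CPM in the tumours and 105, 121, 139.6, 102 and 105 CPM in the DTC (2.76 ± 0.42, adjusted p = 2.49e-05), and Esco1, which locks cohesin by acetylation, rose too (2.92 ± 0.37). The condensin II subunit gene Ncapd3 rose by less (1.03 ± 0.16), and Ncaph2 of the same complex was not called (-0.05 ± 0.11, adjusted p = 0.794). Of 35 genes of the centrosome and the base of the cilium, 26 rose and none fell (median 1.38), against 22 and 1 with the offsets (median 0.70). Among them were Aspm, a spindle pole protein whose loss causes small brains (3.15 ± 0.38), Pcm1, the scaffold of centriolar satellites (3.04 ± 0.39), and Cep295, needed for centriole assembly (2.97 ± 0.31). Pcm1 stood at 19.4, 11.9, 10.4, 14.3 and 11.8 CPM in the tumours and 106, 115, 126, 108 and 102 CPM in the DTC.

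**Figure D2:**
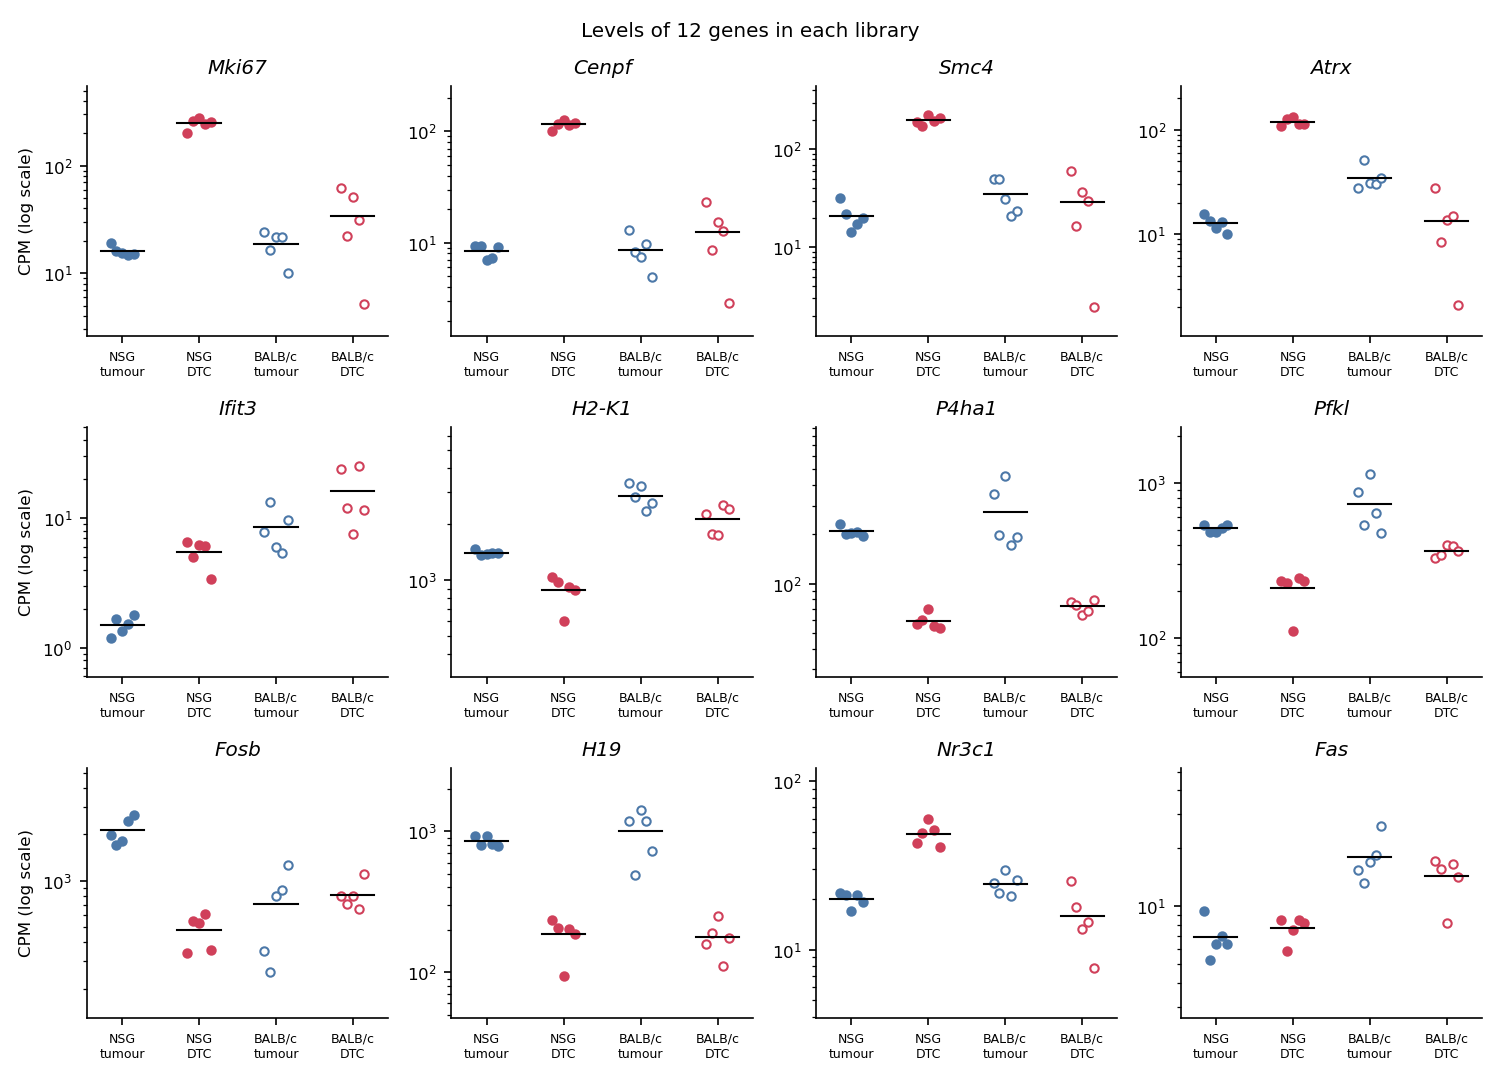
CPM on a log scale in each library of NSG tumour and NSG DTC (filled) and BALB/c tumour and BALB/c DTC (open) for 12 genes, with black lines at group means. The 5 NSG DTC stand above the 5 NSG tumours for Mki67, Cenpf, Smc4, Atrx, Ifit3 and Nr3c1 and below them for H2-K1, P4ha1, Pfkl, Fosb and H19, while the groups overlap for Fas.

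Replication genes rose by smaller steps. Of 45 DNA replication genes 27 rose and none fell (median 0.41), with 14 higher and 1 lower under the offsets (median 0.26), and 15 higher without tumour replicates 2 and 3. Mcm10, which starts the replicative helicase, stood at 25.5, 33.7, 19.3, 30.1 and 34.0 CPM in the tumours and 40.5, 47.5, 54.2, 56.5 and 56.2 CPM in the DTC (0.84 ± 0.14, adjusted p = 5.48e-05). Rrm2, the regulated subunit of ribonucleotide reductase, stood at 90.6, 114, 80.5, 88.3 and 109 CPM in the tumours and 166, 177, 237, 198 and 216 CPM in the DTC (1.04 ± 0.20, adjusted p = 0.000243). Both genes were higher in every DTC library. Mcm4 (0.76 ± 0.13) and Mcm6 (0.47 ± 0.11), helicase subunits, rose modestly, and the call of Mcm6 was lost with the offsets (0.29). Pcna, the sliding clamp of the polymerase, stood at 429.7, 403, 371, 343 and 384 CPM in the tumours and 392, 355, 504, 423 and 459 CPM in the DTC and was not called (0.14 ± 0.12, adjusted p = 0.414). Of the replication promoters 11 of 33 held an E2F element (TTTGGCGC or TTTCCCGC, either strand), against 2.93% of all promoters. Among cohesin and condensin promoters 6 of 12 held the element. Mcm6 (chr1:128359706-128359835 on the minus strand) has it at 2 places, shown in capitals.
Mcm6: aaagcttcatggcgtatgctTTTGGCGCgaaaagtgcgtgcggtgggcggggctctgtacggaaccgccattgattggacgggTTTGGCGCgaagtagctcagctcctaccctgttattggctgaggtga

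Regulators of entry into the cycle did not move as 1 block: of 25 genes of G1 control 9 rose and 3 fell (6 and 5 with the offsets). Cdk6 rose (1.31 ± 0.15, adjusted p = 4.17e-07) while its partner kinase gene Cdk4 fell (-0.39 ± 0.08, adjusted p = 0.000777). Cdk4 stood at 543, 487, 512, 506 and 504 CPM in the tumours and 391, 363, 394, 395 and 411 CPM in the DTC. Cyclin D1, Ccnd1, was not called (0.10 ± 0.14, adjusted p = 0.657), and the growth regulator Myc fell (-0.62 ± 0.15, adjusted p = 0.00282). The retinoblastoma gene Rb1, a brake on the cycle, rose (1.94 ± 0.35, adjusted p = 0.00015), and so did its relative Rbl1 (1.20 ± 0.18).

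DNA repair and chromatin genes were also higher. Of 40 genes of the DNA damage response 29 rose and none fell (median 0.98), and with the offsets 20 rose and 1 fell (median 0.56). Of 51 chromatin modifiers 34 rose and none fell (median 0.67), against 19 and 2 with the offsets (median 0.34) and 21 and 0 without tumour replicates 2 and 3. Atm, the kinase that senses double-strand breaks, stood at 3.73, 5.09, 3.11, 4.17 and 5.09 CPM in the tumours and 26.5, 35.6, 45.6, 31.6 and 31.2 CPM in the DTC. Atr, which senses stalled forks, stood at 4.88, 4.49, 4.69, 4.78 and 5.05 CPM in the tumours and 30.7, 39.3, 44.1, 39.7 and 39.7 CPM in the DTC. Both rose without overlap (3.01 ± 0.37 and 3.02 ± 0.40), as did Brca2, the mediator of strand exchange (2.56 ± 0.31, adjusted p = 8.58e-07). Atrx, a remodeller that keeps heterochromatin and telomeres closed, stood at 15.7, 13.6, 11.5, 13.1 and 10.1 CPM in the tumours and 108, 128, 131, 114 and 114 CPM in the DTC (3.22 ± 0.41, adjusted p = 3.45e-06). Setd2, the methyltransferase for lysine 36 of histone H3, rose (2.44 ± 0.31, adjusted p = 2.54e-06), and so did the remodeller genes Chd9 (2.26 ± 0.32) and Chd1 (1.20 ± 0.19). The catalytic subunits of 2 other remodellers, Chd4 (-0.02 ± 0.15, adjusted p = 0.947) and Smarca4 (0.03 ± 0.12, adjusted p = 0.903), had overlapping groups and were not called. Parp1, which marks DNA breaks with poly(ADP-ribose), was not called either (0.00 ± 0.13, adjusted p = 0.997).

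Several of the largest rises by the naming rule belong to other functions. Tppp, which bundles microtubules, stood at 1.92, 3.12, 1.51, 2.19 and 2.75 CPM in the tumours and 29.9, 28.2, 35.0, 36.6 and 28.2 CPM in the DTC, without overlap (3.79 ± 0.38, adjusted p = 8.45e-08, offset 3.61). Limch1, an activator of non-muscle myosin, stood at 3.65, 5.22, 4.73, 4.05 and 3.50 CPM in the tumours and 58.4, 46.9, 36.6, 48.6 and 41.1 CPM in the DTC (3.46 ± 0.29, adjusted p = 2e-08, offset 3.11). Vps13a, a lipid transfer protein (3.45 ± 0.45), and Eea1, a tether of early endosomes (3.34 ± 0.42), were among the 10 largest by the naming rule, as was Rif1, which controls replication timing (3.34 ± 0.46). In all 5 of these genes the groups did not overlap.

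**Figure D3:**
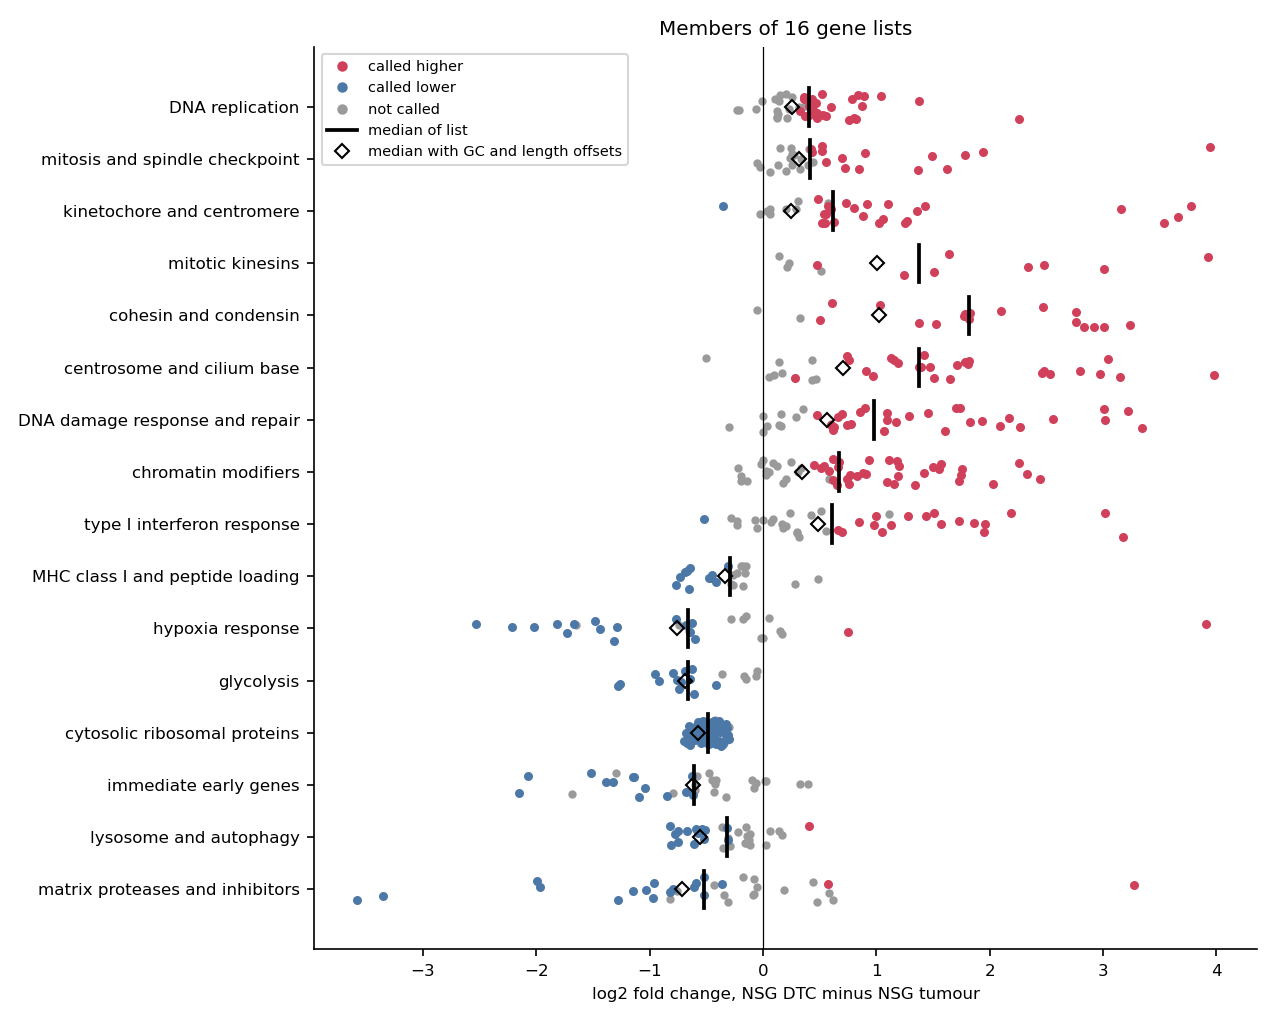
Log2 fold change (NSG DTC minus NSG tumour) of each member of 16 gene lists, with called genes in red or blue, the median as a bar and the median with GC and length offsets as a diamond. The lists for cell division, repair and chromatin have medians of 0.41 to 1.82, and those for hypoxia, glycolysis and ribosomal proteins of -0.66 to -0.49.

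Hypoxia and glycolysis genes were lower in the DTC. Of 28 hypoxia response genes 15 fell and 2 rose (median -0.66), and of 18 glycolysis genes 13 fell and none rose (median -0.66). With the offsets 18 and 14 fell (medians -0.76 and -0.69), and on log2(TPM + 1) 11 and 13 fell. P4ha1, a prolyl hydroxylase that prepares collagen for folding, stood at 233, 202, 204, 207 and 196 CPM in the tumours and 56.6, 60.04, 69.7, 55.4 and 53.5 CPM in the DTC. The DTC libraries lay close together, far below the lowest tumour (-1.82 ± 0.20, adjusted p = 2.49e-07). Its paralog P4ha2 fell alike (-1.73 ± 0.22, adjusted p = 2.13e-06). Bnip3, a mitochondrial receptor for mitophagy, stood at 33.6, 17.9, 27.5, 20.7 and 27.6 CPM in the tumours and 5.37, 5.94, 7.93, 6.50 and 5.56 CPM in the DTC (-2.02 ± 0.31, adjusted p = 2.95e-05). Ankrd37 (-2.53 ± 0.29) and the adenylate kinase gene Ak4 (-2.21 ± 0.26) fell as well. Ndrg1, another gene induced by low oxygen, had overlapping groups and was not called (-0.65 ± 0.27, adjusted p = 0.0783).

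The members that rose were Hif1a, the oxygen-regulated subunit of the factor (0.75 ± 0.28, adjusted p = 0.0489), and Epas1, its relative, which endothelial cells express strongly (3.91 ± 0.95, adjusted p = 0.00317). The call of Hif1a was lost when any 1 of the 10 libraries was left out and with the offsets (0.02). Epas1 stood at 0.157, 2.73, 2.62, 0.288 and 0.651 CPM in the tumours and 26.8, 22.2, 14.7, 13.4 and 18.3 CPM in the DTC. Endothelial markers, given below, were higher in the same libraries, and their part in this rise was not tested.

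Among glycolytic enzymes, Pfkl, the phosphofructokinase that commits sugar to the pathway, stood at 533, 485, 481, 513 and 533 CPM in the tumours and 233, 225, 112, 244 and 233 CPM in the DTC (-1.28 ± 0.20, adjusted p = 2.86e-05). DTC replicate 3 lay well below the other 4. Tpi1 stood at 789.8, 723, 719, 689 and 684 CPM in the tumours and 389, 341, 291, 410.4 and 469.6 CPM in the DTC (-0.92 ± 0.15, adjusted p = 6.2e-05), and Aldoa at 917, 811, 846, 878 and 857 CPM in the tumours and 431, 418, 429.7, 466 and 486 CPM in the DTC (-0.95 ± 0.20, adjusted p = 0.000794). Gapdh fell (-0.69 ± 0.15), whereas pyruvate kinase, Pkm, did not pass the test (-0.36 ± 0.15, adjusted p = 0.08). The core ACGTG (either strand) was found in 12 of 16 hypoxia promoters, against 24.8% of all promoters. It was found in 6 of 11 glycolysis promoters (54.5%) too, a share near those of circadian clock (58.3%) and lysosome and autophagy (57.1%) genes. It is shown in capitals for 3 members that fell, Bnip3 (chr7:138909507-138909636 on the minus strand), P4ha1 (chr10:59323196-59323295 on the plus strand) and P4ha2 (chr11:54100824-54100923 on the plus strand), where the Bnip3 copy reads the same on both strands.
Bnip3: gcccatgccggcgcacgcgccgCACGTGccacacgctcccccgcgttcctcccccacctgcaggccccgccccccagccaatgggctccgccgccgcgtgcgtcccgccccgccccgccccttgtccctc
P4ha1: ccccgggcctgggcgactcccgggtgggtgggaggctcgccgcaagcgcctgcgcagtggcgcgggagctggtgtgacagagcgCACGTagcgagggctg
P4ha2: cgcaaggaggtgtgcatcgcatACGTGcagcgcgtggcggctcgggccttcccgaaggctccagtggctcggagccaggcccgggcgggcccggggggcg

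The largest falls by the naming rule were of other kinds. Tmprss6, a membrane serine protease known for cutting hemojuvelin in iron control, stood at 85.2, 66.8, 79.5, 101 and 90.8 CPM in the tumours and 17.7, 8.41, 5.41, 3.95 and 6.05 CPM in the DTC (-3.35 ± 0.36, adjusted p = 4.17e-07). Ramp1, which turns the calcitonin-like receptor into a receptor for CGRP, stood at 52.9, 35.6, 45.5, 46.9 and 42.5 CPM in the tumours and 13.9, 8.20, 9.50, 8.27 and 8.43 CPM in the DTC (-2.21 ± 0.22, adjusted p = 3.43e-08). The imprinted non-coding RNA H19 stood at 926, 802, 923, 814 and 792 CPM in the tumours and 236, 208, 94.2, 204 and 186 CPM in the DTC (-2.20 ± 0.26, adjusted p = 1.04e-06). In these 3 genes the highest DTC library was below the lowest tumour, and the values with the offsets were -3.18, -2.23 and -2.15. Lbp, which presents bacterial lipopolysaccharide to its receptor, stood at 74.9, 75.5, 76.0, 91.1 and 53.3 CPM in the tumours and 29.8, 17.3, 16.6, 14.6 and 8.94 CPM in the DTC (-2.08 ± 0.26, adjusted p = 2.99e-06). Mmp13, a collagenase (-1.97 ± 0.38), the secreted protease gene Prss23 (-1.94 ± 0.22) and Mylip, a ubiquitin ligase for the LDL receptor (-1.88 ± 0.17), also fell without overlap.

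Matrix and lysosomal genes fell around them. Of 33 matrix proteases and their inhibitors 16 fell and 2 rose (median -0.52, 17 lower and 1 higher with the offsets). Of 32 genes of lysosome and autophagy 15 fell and 1 rose (median -0.31, 22 lower and none higher with the offsets). The aspartic protease gene Ctsd stood at 769.8, 617, 775, 699 and 603 CPM in the tumours and 418, 356, 399.9, 406 and 380.0 CPM in the DTC (-0.82 ± 0.11, adjusted p = 2.83e-06). The cholesterol transporter gene Npc2 (-0.81 ± 0.10) and the glycogen-degrading enzyme gene Gaa (-0.78 ± 0.12) fell likewise. Of 37 collagen and matrix genes 11 fell and 4 rose (15 and 2 with the offsets). Of 24 mesenchymal genes 7 fell and none rose (9 and none with the offsets). Fibronectin, Fn1, fell with overlapping groups (-0.63 ± 0.17, adjusted p = 0.00703). Ltbp3, which anchors latent TGF-beta in the matrix, fell without overlap (-0.89 ± 0.12, adjusted p = 3.11e-06). Of 34 genes of TGF-beta and BMP signalling 12 fell and 5 rose (13 and 1 with the offsets). On log2(TPM + 1) 2 mesenchymal genes fell and 2 rose, and 6 TGF-beta and BMP genes fell and 9 rose. On that scale 5.90% of all genes fell and 35.1% rose.

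Genes for ribosomal proteins were lower in nearly every case. Of 78 cytosolic ribosomal protein genes 75 fell and none rose, with log2 fold changes from -0.70 to -0.30 (median -0.49) and 67 lower with the offsets. They took 4.62% to 6.27% of counts in the DTC and 6.21% to 8.18% in the tumours. Rps9, a protein of the small subunit, stood at 1949, 1499, 1890.4, 1613 and 1445 CPM in the tumours and 1141, 932, 979, 1010.5 and 1209 CPM in the DTC (-0.67 ± 0.10, adjusted p = 1.34e-05). Rplp0, of the stalk of the large subunit, stood at 3122, 2752, 3024, 2915 and 2571 CPM in the tumours and 2108, 1860.4, 2201, 2171 and 2373 CPM in the DTC (-0.43 ± 0.09, adjusted p = 0.000864). The elongation factor gene Eef2 fell as well (-0.73 ± 0.11, adjusted p = 1.12e-05), while the initiation factor genes Eif3a (1.66 ± 0.43, adjusted p = 0.00475) and Eif5b (1.55 ± 0.37, adjusted p = 0.00261) rose. Over 32 translation factors 11 fell and 5 rose (20 and 2 with the offsets). On log2(TPM + 1) 5 fell and 9 rose, where 5.90% of all genes fell and 35.1% rose. Reads of ribosomal protein genes can be shared with their many pseudogenes, so single values are less certain than the common direction.

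Interferon genes split in 2 directions. Of 38 genes of the type I interferon response 18 rose and 1 fell (median 0.61), with 15 and 1 under the offsets (median 0.48). Of 22 genes of MHC class I and peptide loading none rose and 11 fell (median -0.29), with 12 lower under the offsets and 5 lower and 1 higher on log2(TPM + 1). Ifit3, which binds foreign RNA, stood at 1.18, 1.66, 1.35, 1.52 and 1.77 CPM in the tumours and 6.56, 5.00, 6.13, 6.05 and 3.38 CPM in the DTC (1.86 ± 0.29, adjusted p = 2.75e-05). Mx1, a GTPase against viruses, stood at 0.236, 0.233, 0.299, 0.320 and 0.203 CPM in the tumours and 2.78, 1.68, 2.42, 2.09 and 1.62 CPM in the DTC, low in both groups but without overlap (3.02 ± 0.44, adjusted p = 1.19e-05). Samd9l stood at 5.88, 2.99, 5.41, 4.80 and 2.56 CPM in the tumours and 41.2, 31.2, 50.3, 36.4 and 37.1 CPM in the DTC (3.18 ± 0.49, adjusted p = 3.24e-05), and the RNA sensor gene Ddx58 rose by less (1.00 ± 0.19). The nuclease gene Isg20 was the member that fell (-0.52 ± 0.13, adjusted p = 0.00326), and Bst2 (-0.28 ± 0.19, adjusted p = 0.302) and Ifi27 (-0.07 ± 0.12, adjusted p = 0.747) were not called. The response element, GAAA followed by any 2 bases and GAAA, was read on either strand. It matched 13 of 24 type I promoters and 10 of 17 interferon gamma promoters, against 3.24% of all. It also matched 5 of 17 promoters of MHC class I and peptide loading. Among immune checkpoints and natural killer ligands it matched 3 of 10. Ifit3 (chr19:34583359-34583528 on the plus strand) and its neighbour Ifit1 (chr19:34640759-34640888 on the plus strand), named after its values were seen (1.96 ± 0.37, adjusted p = 0.000275), hold it at 2 places each, in capitals as it reads on the other strand.
Ifit3: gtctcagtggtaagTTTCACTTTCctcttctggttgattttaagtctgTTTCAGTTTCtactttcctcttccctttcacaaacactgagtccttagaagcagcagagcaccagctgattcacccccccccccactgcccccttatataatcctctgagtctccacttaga
Ifit1: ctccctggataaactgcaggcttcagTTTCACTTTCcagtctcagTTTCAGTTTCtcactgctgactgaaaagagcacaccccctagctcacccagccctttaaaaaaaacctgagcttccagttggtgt

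MHC class I genes went the other way. H2-K1, a classical class I heavy chain, stood at 1481, 1374, 1382, 1394 and 1396 CPM in the tumours and 1046, 980.2, 601, 922 and 882 CPM in the DTC (-0.67 ± 0.12, adjusted p = 0.000177). H2-D1, the other main heavy chain, stood at 2364, 2159, 2238, 2247 and 2251 CPM in the tumours and 1649.5, 1539, 885, 1495 and 1397 CPM in the DTC (-0.69 ± 0.13, adjusted p = 0.000202). B2m, their light chain, fell with overlapping groups (-0.46 ± 0.12, adjusted p = 0.00645), and the immunoproteasome subunit gene Psmb8 fell without overlap (-0.65 ± 0.13, adjusted p = 0.000628). Reads of H2 genes can be shared among paralogs. Of 27 interferon gamma response genes 4 rose and 2 fell, near the shares of all genes (16.0% and 9.55%). With the offsets 2 rose and 7 fell, where 7.62% of all genes rose and 17.0% fell. The kinase gene Jak2 rose (1.83 ± 0.36, adjusted p = 0.000417), and the factor Irf1 (-0.71 ± 0.19, adjusted p = 0.00623) and the feedback inhibitor Socs1 (-0.85 ± 0.22, adjusted p = 0.00457) fell. The 9 MHC class II genes had log2 fold changes from -1.43 to 1.03, with adjusted p of 0.222 or more by edgeR, 0 with an unadjusted p under 0.05, and 0 called by DESeq2 or limma.

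Immediate early genes, which respond within minutes to growth factors and to handling of tissue, were lower in the DTC. Of 32 such genes none rose and 13 fell (median -0.61), 14 fell with the offsets, and 24 fell when only the 10 libraries were fitted (where 20.2% of genes rose and 16.9% fell). Fosb, a partner in the AP-1 factor, stood at 1969.8, 1703, 1816, 2448 and 2678 CPM in the tumours and 338, 551, 534, 606 and 357 CPM in the DTC (-2.15 ± 0.38, adjusted p = 0.000144). Fos stood at 2428, 2093, 2163, 2757 and 2825 CPM in the tumours and 773, 962, 1055, 879 and 619 CPM in the DTC (-1.52 ± 0.22, adjusted p = 1.67e-05). Junb stood at 2665, 2328, 2715, 2979 and 3279 CPM in the tumours and 1491, 1412, 497, 1686 and 1249 CPM in the DTC, with DTC replicate 3 far below the others (-1.14 ± 0.21, adjusted p = 0.000241). Atf3 (-1.38 ± 0.37, adjusted p = 0.00647) and the growth arrest gene Gadd45b (-1.09 ± 0.23, adjusted p = 0.000952) fell too. Both tissues were digested by the same protocol, and the labels do not record the time from mouse to sort, whose part was not tested.

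Inflammatory genes were called at rates near those of all genes, of which 16.0% rose and 9.55% fell. Of 36 NF-kB targets 7 rose and 2 fell (6 and 6 with the offsets), and of 27 chemokines and colony-stimulating factors 5 rose and 2 fell (3 and 5 with the offsets). The cytokine gene Tnf stood at 7.45, 5.98, 6.54, 8.28 and 6.39 CPM in the tumours and 37.7, 32.4, 27.4, 27.8 and 26.9 CPM in the DTC (2.13 ± 0.34, adjusted p = 3.95e-05). Cxcl5, which attracts neutrophils, rose (1.56 ± 0.29, adjusted p = 0.000234), and Il1a rose from low values (2.35 ± 0.48, adjusted p = 0.000556). Csf3, the growth factor for neutrophils, stood at 196, 182, 241, 238 and 247 CPM in the tumours and 108, 121, 117, 151 and 96.9 CPM in the DTC and fell (-0.90 ± 0.26, adjusted p = 0.0119). Cxcl2, a near relative of Cxcl5, was not called, although its 5 DTC values lay above all tumours (0.57 ± 0.51, adjusted p = 0.445). When only the 10 libraries were fitted, Cxcl2 was called higher (0.50, adjusted p = 0.0043 by edgeR).

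Epithelial genes shifted within the family. Of 13 keratins 3 rose and 6 fell, with 3 and 3 under the offsets. Krt18, the partner of Krt8 in simple epithelium, stood at 2929.7, 2824, 2848, 2689 and 2731 CPM in the tumours and 1778, 1541, 1271, 1757 and 1892 CPM in the DTC (-0.77 ± 0.12, adjusted p = 2.27e-05). Krt8 (-0.47 ± 0.14, adjusted p = 0.0114) and Krt7 (-0.85 ± 0.14, adjusted p = 6.05e-05) fell as well, whereas Krt19, another simple keratin, stood at 211, 235, 197, 194 and 189 CPM in the tumours and 362, 289.6, 222, 378 and 434 CPM in the DTC and rose, with DTC replicate 3 inside the tumour range (0.72 ± 0.17, adjusted p = 0.00232). Krt15, a basal keratin, rose too, and again DTC replicate 3 fell within the tumours (1.47 ± 0.33, adjusted p = 0.00171). Of 40 genes of junctions and polarity 5 rose and 7 fell (2 and 12 with the offsets), where 16.0% of all genes rose and 9.55% fell. The tight junction gene Cldn4 stood at 1194, 892, 1048, 1394 and 1281 CPM in the tumours and 573, 376, 271, 389 and 429 CPM in the DTC (-1.51 ± 0.24, adjusted p = 3.91e-05), and the desmosome genes Dsp (0.90 ± 0.30, adjusted p = 0.0275) and Dsg2 (0.86 ± 0.24, adjusted p = 0.00891) rose, calls that the offsets removed (0.64 and 0.53) and that for Dsp held in 2 of the 10 fits that leave out 1 library. Without tumour replicates 2 and 3 no gene of this list rose and 8 fell.

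Metabolic and stress genes gave smaller groups of calls. Among all genes 16.0% rose and 9.55% fell, or 7.62% and 17.0% with the offsets. Of 24 cholesterol synthesis genes 10 rose and 1 fell (4 and 1 with the offsets, 3 and 0 without tumour replicates 2 and 3), among them Stard4, a sterol carrier (1.24 ± 0.18, adjusted p = 1.31e-05), and Idi1 (1.25 ± 0.28, adjusted p = 0.00149). Of 33 antioxidant genes 5 rose and 10 fell (4 and 15 with the offsets). The quinone reductase gene Nqo1 rose (1.14 ± 0.21, adjusted p = 0.000234) together with ferritin heavy chain, Fth1 (0.48 ± 0.13, adjusted p = 0.00497). Of 58 nuclear subunits of oxidative phosphorylation 10 fell and 1 rose (18 and 0 with the offsets). On log2(TPM + 1) 1 fell and 2 rose, where 5.90% of all genes fell and 35.1% rose. The ATP synthase subunit gene Atp5b fell (-0.33 ± 0.09, adjusted p = 0.0071). Of 32 genes of the amino acid stress response 5 rose and 6 fell (3 and 6 with the offsets). Psat1, a serine synthesis enzyme, stood at 90.9, 106, 85.7, 95.3 and 95.3 CPM in the tumours and 158, 174, 222, 191 and 217 CPM in the DTC and rose (1.03 ± 0.14, adjusted p = 6.74e-06), and Slc3a2, a chain of amino acid transporters, fell (-0.66 ± 0.11, adjusted p = 9.68e-05). The 2 main cytosolic Hsp90 genes parted: Hsp90aa1, the stress-induced form, stood at 417, 324, 226, 292 and 295 CPM in the tumours and 1049.6, 982, 1159, 1041 and 1056 CPM in the DTC (1.77 ± 0.38, adjusted p = 0.00103), and Hsp90ab1, the constitutive form, fell (-0.52 ± 0.09, adjusted p = 5.58e-05).

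The title of the study names glucocorticoids and Fas. Nr3c1, the glucocorticoid receptor, stood at 21.6, 21.2, 16.9, 21.0 and 19.2 CPM in the tumours and 43.1, 49.4, 60.1, 51.2 and 41.0 CPM in the DTC, without overlap (1.29 ± 0.22, adjusted p = 6.43e-05). With the offsets the rise was smaller and still called (0.55). Tsc22d3, the gene of the leucine zipper GILZ, which glucocorticoids induce, stood at 65.3, 57.8, 58.6, 56.4 and 58.4 CPM in the tumours and 108, 89.2, 125, 97.4 and 112 CPM in the DTC (0.84 ± 0.21, adjusted p = 0.00332). The clock gene Per1, also induced by glucocorticoids, stood at 56.3, 51.6, 60.3, 68.0 and 69.5 CPM in the tumours and 86.6, 102, 103, 131 and 94.4 CPM in the DTC (0.76 ± 0.22, adjusted p = 0.0122). Fkbp5, a receptor co-chaperone that glucocorticoids induce, moved the other way, with overlapping groups and an adjusted p near the threshold (-0.32 ± 0.12, adjusted p = 0.0485), and its call held in 4 of the 10 fits that leave out 1 library. Of 27 glucocorticoid-induced genes 3 rose and 6 fell, where 16.0% of all genes rose and 9.55% fell. The counts were 2 and 7 with the offsets, and 4 and 12 when only the 10 libraries were fitted (where 20.2% of genes rose and 16.9% fell). Hsd11b2, the enzyme that inactivates glucocorticoids, stood at 13.0, 12.8, 10.8, 13.8 and 12.8 CPM in the tumours and 5.40, 3.45, 5.89, 4.61 and 4.88 CPM in the DTC and fell (-1.38 ± 0.21, adjusted p = 1.9e-05). Fas, the death receptor, stood at 9.50, 5.25, 6.42, 7.04 and 6.35 CPM in the tumours and 8.54, 5.87, 7.55, 8.47 and 8.18 CPM in the DTC, and was not called (0.16 ± 0.22, adjusted p = 0.655). In the death receptor pathway 7 of 27 genes rose and 4 fell, with 1 and 4 under the offsets. Tnfrsf1a, the receptor for tumour necrosis factor, fell (-0.31 ± 0.10, adjusted p = 0.0166).

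RNA of host cells moved with the comparison at low levels. Of 13 markers of lung alveolar epithelium 10 rose and none fell (median 3.85), and their summed level was 89.9 to 140.4 CPM in the DTC and 32.4 to 45.5 CPM in the tumours. Surfactant protein C, Sftpc, stood at 0.289, 0.964, 0.439, 0.0480 and 0.549 CPM in the tumours and 9.65, 13.5, 34.6, 14.5 and 7.38 CPM in the DTC (5.24 ± 1.29, adjusted p = 0.00373), and Sftpb and Sftpd had no count in any tumour library. Of 15 endothelial markers 11 rose and 1 fell. Pecam1 stood at 1.18, 2.39, 4.78, 0.544 and 0.895 CPM in the tumours and 15.4, 12.2, 13.0, 9.91 and 11.5 CPM in the DTC (2.66 ± 0.71, adjusted p = 0.00637), whereas Eng, which carcinoma cells can express too, fell (-0.60 ± 0.10, adjusted p = 8.25e-05). The summed endothelial level, Eng included, was 175 to 213 CPM in the DTC and 162 to 196 CPM in the tumours. Without tumour replicates 2 and 3 the alveolar list had 6 genes higher. Macrophage and dendritic cell markers summed to 33.3 to 95.4 CPM in the DTC and 16.1 to 35.4 CPM in the tumours, although the sort left out CD45-positive cells. Of these 17 markers 3 rose (Lyz2, Itgax and Marco), 3 fell (the complement genes C1qa, C1qb and C1qc) and 11 were not called, with 2 lower under the offsets and 1 lower without tumour replicates 2 and 3. Lysozyme, Lyz2, which the alveolar list holds too, made up most of the sum in the DTC, at 3.36, 4.79, 7.65, 7.15 and 4.84 CPM in the tumours and 30.3, 17.8, 46.3, 61.2 and 20.1 CPM in the DTC (2.65 ± 0.80, adjusted p = 0.0151), a call lost without tumour replicates 2 and 3 (2.74). Red cell and platelet markers summed to 22.5 to 68.5 CPM in the DTC and 3.78 to 9.47 CPM in the tumours. Fibroblast and pericyte markers summed to less in the DTC, at 174 to 220.1 CPM against 269 to 396 CPM. Of these 15 markers none rose, 4 fell and 11 were not called, with 7 lower under the offsets, and 4 had a log2 fold change above 0. Among those that fell, Col1a1 stood at 76.7, 132, 129.9, 130.5 and 101 CPM in the tumours and 28.3, 35.9, 21.8, 26.5 and 23.5 CPM in the DTC (-2.07 ± 0.43, adjusted p = 0.00089). T, B and natural killer cell markers summed to at most 10.4 CPM in any of the 10 libraries, with Cd3d, Ms4a1 and Klrb1c at 0 counts in all of them. Most of the sum came from Trac (1078 counts over the tumours and 1821 over the DTC) and Lck (450 and 480). Others had few counts, such as Cd3e (50 and 9) and Cd79a (51 and 27). Of the 9 of these markers that were tested, none rose and 1 fell. Skeletal muscle markers were highest in tumour replicates 2 and 3, where titin, Ttn, stood at 112 and 159.8 CPM, against 17.4, 16.8 and 11.0 CPM in the others. In bulk libraries fewer cells of a type and less RNA per cell cannot be told apart. The part of host RNA in the other results was not tested.

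**Figure D4:**
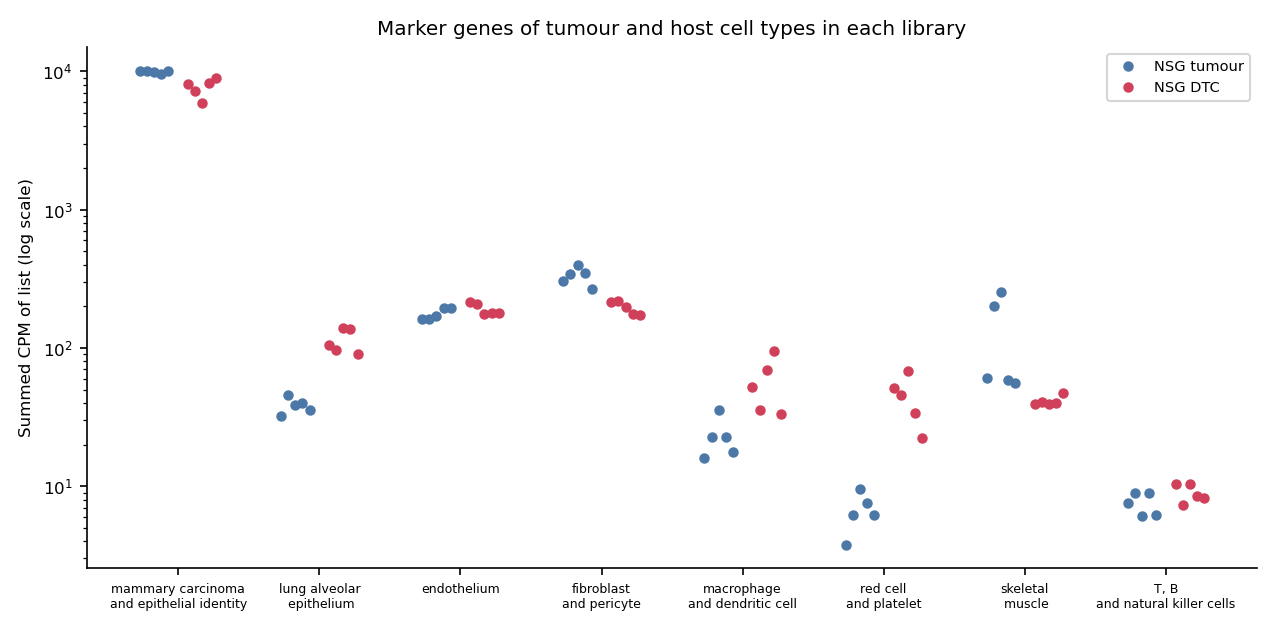
Summed CPM (log scale) of the marker genes of 8 cell types in each NSG tumour (blue) and NSG DTC (red) library. The alveolar and red cell sums are higher in all 5 DTC, the fibroblast sum is lower, and the carcinoma sum stands far above every host list in both groups.

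Whether these changes depended on the host was asked with an interaction term, the NSG change minus the BALB/c change. It was called for 5944 genes (33.4%), 3274 (18.4%) positive and 2670 (15.0%) negative, and for 2592 of the 4538 genes called within NSG. The term contains the NSG change itself, which raises that overlap, so the overlap does not measure dependence on the host. BALB/c tumours were taken at days 21 and 22 and NSG tumours at day 10. Host and age of the tumour therefore cannot be told apart in the term. The BALB/c DTC libraries also differed from the NSG DTC in GC trend, with rank correlations of -0.0947 to 0.442, and with the offsets 1758 genes (9.89%) were positive and 3199 (18.0%) negative. Among chromatin modifiers the term was positive for 34 of 51 and negative for 3, and with the offsets for 25 and 4. In BALB/c mice 28 of these genes fell and 4 rose, where 20.4% of all genes rose and 21.0% fell. Setd2 fell in BALB/c (-1.09 ± 0.29, adjusted p = 0.00403) and rose in NSG (interaction 3.52 ± 0.42, adjusted p = 1.25e-06). Atrx, at 34.9 ± 9.49 CPM in BALB/c tumours and 13.4 ± 9.61 CPM in BALB/c DTC (SD, n = 5), did likewise (interaction 4.60 ± 0.56, adjusted p = 1.61e-06). Terms were ranked among genes at a mean log2 CPM of at least 3, without overlap in NSG and in no marker list. The largest positive ones were those of Nbeal1 (4.93 ± 0.54, adjusted p = 4.4e-07) and Dio2, the enzyme that activates thyroid hormone (4.85 ± 0.50, adjusted p = 3.13e-07). Dio2 stood at 17.1, 6.65, 7.51, 11.4 and 10.7 CPM in the tumours and 74.0, 58.9, 72.6, 58.1 and 71.4 CPM in the DTC in NSG and at 75.4 ± 37.9 CPM in BALB/c tumours and 16.4 ± 8.80 CPM in BALB/c DTC (SD, n = 5). The nuclear pore gene Ranbp2 (4.69 ± 0.57, adjusted p = 1.52e-06) and the zinc finger gene Zfp62 (4.63 ± 0.64, adjusted p = 5.11e-06) followed, and all 5 of these terms were called with the offsets too (2.52, 2.31, 4.01, 3.17 and 3.23).

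Replication genes had the opposite term, negative for 38 of 45 and positive for 2 (40 and 1 with the offsets). In BALB/c mice 43 of 45 rose (median 1.36). Mcm10 stood at 11.5 ± 2.40 CPM in BALB/c tumours and 61.1 ± 6.27 CPM in BALB/c DTC (SD, n = 5) (interaction -1.57 ± 0.20, adjusted p = 1.32e-06). Genes of mitosis and the spindle checkpoint had mostly negative terms too, 24 of 31 against 1 positive (25 and 1 with the offsets), and 28 of them rose in BALB/c (median 1.45, against 0.42 in NSG). Kinetochore and centromere genes had 14 negative and 6 positive terms of 32 (23 and 4 with the offsets), and mitotic kinesins 5 negative and 3 positive of 12 (5 and 2). The positive term of the mitosis list was that of Mki67 (3.08 ± 0.55, adjusted p = 9.78e-05), which did not pass the test in BALB/c (0.86 ± 0.38, adjusted p = 0.073) and ran from 5.17 to 61.9 CPM in the 5 BALB/c DTC. Cenpf (3.25 ± 0.45, adjusted p = 4.95e-06) was among the 6 kinetochore genes with a positive term. In contrast to mitosis, cohesin and condensin genes had 13 positive and 3 negative terms of 19 (11 and 4 with the offsets), among them Smc4 (3.50 ± 0.62, adjusted p = 9.23e-05), and genes of the centrosome and cilium base 22 positive and 2 negative of 35 (18 and 5). Type I interferon genes had 17 positive and no negative terms (12 and 0 with the offsets), among them Samd9l (3.65 ± 0.66, adjusted p = 0.000106). Of the immediate early genes 22 of 32 were negative and none positive (21 and 0 with the offsets), and 19 of them rose in BALB/c. Atf3 stood at 329 ± 211 CPM in BALB/c tumours and 779.9 ± 132 CPM in BALB/c DTC (SD, n = 5) and rose there (1.24 ± 0.37, adjusted p = 0.00787), in contrast to its fall in NSG (interaction -2.62 ± 0.52, adjusted p = 0.000293). The largest negative terms in the same ranking were those of Ovol1, a repressor that keeps cells epithelial (-3.67 ± 0.56, adjusted p = 1.91e-05), the NF-kB modulator Nfkbid (-2.82 ± 0.59, adjusted p = 0.00043), Csf3 (-2.80 ± 0.37, adjusted p = 3.74e-06) and Cxcl2 (-2.67 ± 0.73, adjusted p = 0.00562). Outside that ranking, 4 of 13 alveolar and 3 of 15 endothelial markers had negative terms and none a positive one. With the offsets 2 and 1 were negative, where 18.0% of all genes were. The median change of the alveolar markers was 6.46 in BALB/c and 3.85 in NSG.

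For the hypoxia list 7 of 28 terms were positive and 3 negative, and for glycolysis 2 of 18 positive and 3 negative, shares near those of all genes. P4ha1 fell in BALB/c too (-1.91 ± 0.20, adjusted p = 7.97e-09), and the term was not called (0.09 ± 0.27, adjusted p = 0.827, 95% interval -0.46 to 0.65). For H19 (0.30 ± 0.35, adjusted p = 0.548, 95% interval -0.42 to 1.02) and Ramp1 (0.68 ± 0.29, adjusted p = 0.0741, 95% interval 0.07 to 1.29) it was not called either. Nr3c1 rose in NSG and went the other way in BALB/c (interaction 1.93 ± 0.30, adjusted p = 1.88e-05). In BALB/c it stood at 24.8, 21.7, 29.8, 20.9 and 26.0 CPM in the tumours. The BALB/c DTC stood at 25.6, 17.9, 13.3, 14.7 and 7.80 CPM, so these groups overlapped. Tsc22d3 rose in both (interaction -0.05 ± 0.29, adjusted p = 0.913, 95% interval -0.66 to 0.55), and the term for Fas was not called (0.49 ± 0.31, adjusted p = 0.243, 95% interval -0.16 to 1.14).

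**Figure D5:**
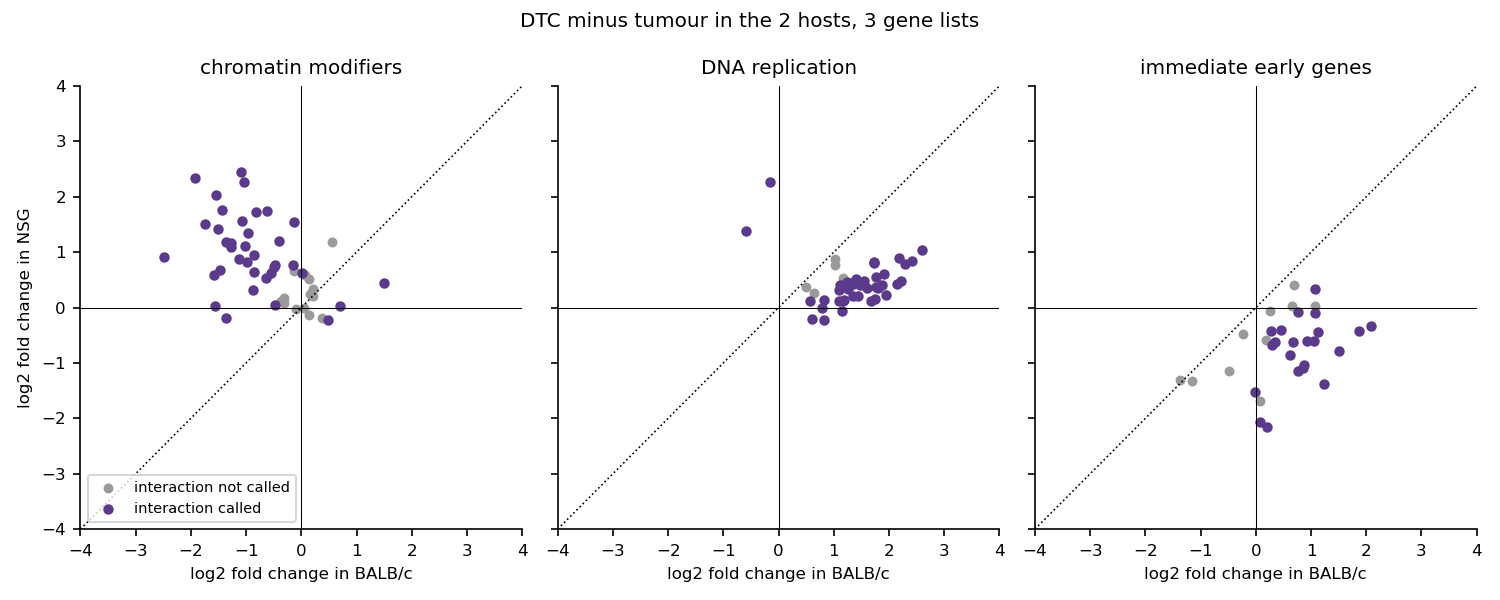
Log2 fold change of DTC minus tumour in BALB/c (x axis) and in NSG mice (y axis) for chromatin modifiers, DNA replication genes and immediate early genes, with genes called in the interaction in purple and the dotted line at equal change. Most chromatin modifiers (34 of 51 positive terms) lie above the line, and most replication genes (38 of 45 negative) and immediate early genes (22 of 32 negative) below it.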

How the data were processed

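RNA of sorted cells was sequenced in bulk, and 10 of 30 libraries were compared, 5 per group by their labels. Per the submitters' processing notes, reads were trimmed with Trimmomatic 0.36 and aligned with STAR 2.5.2b to GRCm38 (mm10). The counting tool is not given in the sources used here. The deposited table of raw counts per gene was the main input, and TPM values deposited by the authors served as an alternative scale. Symbols follow GENCODE M21 by gene ID. Of 49315 genes, 17774 passed filterByExpr, and they held 99.969% of counts. A quasi-likelihood model (edgeR 4.0.16 in R 4.3.3, TMM, robust) was fitted to all 30 libraries with 1 mean per group, 24 residual degrees of freedom and Benjamini-Hochberg adjustment over all genes at 0.05. The median biological coefficient of variation was 0.269. Intervals at 95% use those degrees of freedom. In data simulated for the comparison of NSG DTC with tumour over 16977 genes, the test found 17.9% of 1.5-fold, 74.0% of 2-fold and 100% of 4-fold changes, with 4 false calls. The simulation used a common dispersion and gave each gene the same mean in all groups before the changes. It held no trend in GC content or length, and changed genes were drawn only from those above a minimum level. The 4 false calls therefore cannot describe calls tied to the GC and length trend of the real libraries. Alternatives were RLE scaling, DESeq2 1.42.0, limma 3.58.1 (voom, and log2(TPM + 1) or log2(TPM + 0.1)), other filters, fewer libraries, and offsets per library from splines in GC content and exonic length. No libraries had identical counts.

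Members and gene lists were chosen with earlier results of these data known. Named genes followed a rule. It took the 10 largest rises and falls without overlap, at a mean log2 CPM of at least 3 and in no marker list. By the same filters it took 5 interaction terms per direction. It also took 5 genes from the title and its pathway, and 3 markers per cell type. Per list it took the 4 smallest adjusted p in each direction and the 2 highest levels. Of the 386 genes it takes, 136 are printed, chosen after their values were seen, and Ifit1 and the other markers called in the macrophage list (Itgax, Marco, C1qa, C1qb and C1qc) were added. The fit without tumour replicates 2 and 3 was chosen after seeing the data.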

Additional observations from a re-analysis of the deposited data

Results flagged for a closer look

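Among 308 groups of 5 values examined, 17 held a library whose gap to the others exceeded Dixon's 95% critical value of 0.71, and chance gives about 1 in 20. In the tumours these were Top2a at 93.9 CPM and Kif11 at 18.4 CPM in replicate 3, and Mmp13 at 7.35 CPM and Mylip at 27.2 CPM in replicate 2. In tumour replicate 1 they were Brca2 at 5.38 CPM, Chd1 at 62.6 CPM, H2-K1 at 1481 CPM, Eif3a at 179 CPM and Tsc22d3 at 65.3 CPM. In DTC replicate 3 they were Ncapd3 at 56.8 CPM, Hif1a at 206 CPM, Pfkl at 112 CPM, Dsg2 at 47.1 CPM and Sftpc at 34.6 CPM. Ramp1 was 13.9 CPM in DTC replicate 1, skeletal muscle markers summed to 47.0 CPM in DTC replicate 5, and the total count was 34632933 in DTC replicate 5.

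For 87 of the 137 genes named, edgeR's test of the host interaction was called, that is, the NSG change differed from the BALB/c change. Over all genes 33.4% were called. Many named genes were taken for a call within NSG or in the interaction itself, so the 2 shares cannot be compared. With the GC and length offsets 72 of these calls were kept and 15 lost, those of Per1, Eng, Slc3a2, Pkm, Eef2, Tnfrsf1a, Rbl1, Ddx58, Cdk6, Dsg2, Bnip3, Ifit1, Hif1a, Kif15 and Brca2. Among the lost, the value turned to -0.19 in Cdk6, -0.37 in Rbl1 and 0.01 in Tnfrsf1a. The named genes do not stand for their lists: of 31 mitosis genes 24 had a negative term and 1 a positive one, and of 32 kinetochore genes 14 and 6 (25 and 1, and 23 and 4, with the offsets). Each value is the difference of the 2 log2 fold changes.
Among genes of mitosis, the spindle and the centrosome it was 4.18 in Pcm1, 3.38 in Cep295, 3.27 in Kif20b, 3.25 in Cenpf, 3.16 in Knl1, 3.13 in Cenpe, 3.08 in Mki67, 3.07 in Kif18a, 3.07 in Aspm, 1.94 in Kif15, -0.90 in Cenpa and -1.21 in Kif20a. For cohesin, condensin and replication it was 4.06 in Esco1, 3.82 in Nipbl, 3.50 in Smc4, -0.76 in Ncaph2, -0.89 in Mcm6, -1.05 in Pcna, -1.55 in Rrm2 and -1.57 in Mcm10. For repair and chromatin it was 4.60 in Atrx, 4.13 in Rif1, 3.82 in Atm, 3.52 in Setd2, 3.50 in Atr, 3.30 in Chd9, 2.06 in Brca2, 1.60 in Chd1, -0.68 in Smarca4 and -0.92 in Parp1. For regulators of the cycle it was 2.63 in Rb1, 1.00 in Cdk6, 0.72 in Rbl1, -0.71 in Cdk4, -0.74 in Ccnd1 and -1.30 in Myc. For interferon genes it was 3.65 in Samd9l, 3.00 in Jak2, 2.70 in Mx1, 1.62 in Ifit1, 0.88 in Ddx58, -1.62 in Irf1 and -1.84 in Socs1. For hypoxia, metabolism and translation it was 2.56 in Eif3a, 2.5 in Eif5b, 2.25 in Hsp90aa1, 1.66 in Hif1a, 1.54 in Bnip3, -0.41 in Eef2, -0.55 in Pkm, -0.59 in Slc3a2, -0.65 in Hsp90ab1, -0.68 in Rplp0, -0.92 in Atp5b and -1.18 in Psat1. For immediate early and inflammatory genes it was -1.49 in Fos, -1.53 in Tnf, -1.90 in Junb, -1.93 in Gadd45b, -2.35 in Fosb, -2.62 in Atf3, -2.67 in Cxcl2, -2.80 in Csf3 and -2.82 in Nfkbid. For glucocorticoid and death receptor genes it was 1.93 in Nr3c1, -0.35 in Tnfrsf1a, -0.66 in Fkbp5, -1.24 in Per1 and -2.09 in Hsd11b2. For epithelial, matrix and secreted genes it was 2.15 in Dsp, 1.27 in Dsg2, -0.63 in Ltbp3, -0.75 in Krt18, -0.78 in Eng, -0.87 in Prss23, -0.88 in Krt19, -1.02 in Krt7, -1.07 in Krt8, -1.43 in Cldn4 and -3.67 in Ovol1. For the others it was 4.93 in Nbeal1, 4.85 in Dio2, 4.69 in Ranbp2, 4.63 in Zfp62, 4.53 in Vps13a, 4.11 in Eea1 and 2.66 in Limch1. BALB/c tumours were older than NSG tumours, and the part of tumour age in these differences cannot be told apart from the host.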

How the results depend on the processing

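Against 2840 genes called higher and 1698 lower, the fit with GC and length offsets gave 1354 and 3029, log2(TPM + 1) gave 4680 and 787, log2(TPM + 0.1) gave 4490 and 761, and log2(TPM + 1) with no filter gave 4841 and 685. The 10 libraries alone gave 2605 lower, and leaving out tumour replicates 2 and 3 gave 1746 higher. Of 51 lists, 30 had a median above 0, against 19 with the 10 libraries alone and 16 with the offsets. The median log2 fold change in the lowest minus the highest of 5 GC groups was 0.733, against -0.087 with the offsets, as their construction sets, and 0.469 on log2(TPM + 1) with no filter. The cause of the other changes was not tested. Leaving out 1 library at a time gave 3717 to 4233 genes called within NSG and 5400 to 6427 in the interaction, against 4538 and 5944.

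None of the 137 named genes that were called within NSG turned direction under these alternatives. Calls lost were Mcm6, Hif1a, Tnfrsf1a, Dsp and Dsg2 with the offsets. On log2(TPM + 1) they were Zwint, Cdk4, Myc, Isg20, Irf1, B2m, Atp5b, Fkbp5, Tnfrsf1a, Fn1 and Krt8, while Cenpa (0.40) and Pcna (0.35) were called higher there. Without tumour replicates 2 and 3, Hif1a, Per1, Dsp, Dsg2 and Lyz2 were lost, with limma voom Lyz2 (2.52) and Sftpc (5.56), with no filter Hif1a, Ovol1 and Dsp, and with RLE scaling Hif1a. Leaving out 1 library ended the calls of Hif1a (any library), Dsp (8 of 10), Fkbp5 (6 of 10), Ovol1 (DTC replicate 3, tumour replicate 4 or 5), Per1 (DTC replicate 4) and Tnfrsf1a (tumour replicate 4). Ndrg1 was called in 6 alternatives, down to -0.89, and Pkm in 4, down to -0.46, and Cxcl2 was called higher with the 10 libraries alone (0.50). No paired analysis was possible because the replicate numbers were given in accession order and the labels tie no tumour library to a lung library.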
